A study of Homo sapiens with 56 samples.

Results

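Endoplasmic reticulum (ER) unfolded protein response genes were followed across 4 cultures of human mantle cell lymphoma (MCL) cell lines given single drugs or pairs of drugs. The group was a list of 39 genes chosen by symbol: sensors and transcription factors, lumenal chaperones, folding enzymes, ER-associated degradation (ERAD) genes and translocon subunits. All 39 symbols were found among the 21595 named genes of the deposited table, and all 39 were among the 16755 genes that passed the filter on low values. MCL is a B cell lymphoma. The cultures are labelled Z138, JEKO-1, MINO-P and MINO-VR, where the suffixes P and VR are left unexplained. Treatments are labelled CON (taken as untreated, as the design text names untreated samples), BTZ, IBR, CLF, YM155 and S63845, plus the pairs BTZ_CLF, IBR_CLF, BTZ_YM155, IBR_YM155, BTZ_S63845 and IBR_S63845. BTZ and IBR are the usual abbreviations of bortezomib, a proteasome inhibitor, and ibrutinib, an inhibitor of Bruton tyrosine kinase. YM155 is a suppressant of survivin (BIRC5) and S63845 inhibits MCL-1. CLF is not spelled out, and neither doses nor exposure times are given in the sources used here. The 56 libraries gave 48 samples after 8 near-identical pairs were averaged: 5 CON, 5 BTZ, 8 IBR, 6 CLF, 4 YM155 and 6 S63845, with the rest under pairs of drugs. Each line and treatment had 1 or 2 samples, and nothing says that they came from separate cultures, so p-values measure only the spread between these samples.

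The ER folds secreted and membrane proteins. When unfolded proteins build up there, 3 membrane sensors respond: IRE1 alpha (ERN1) splices the XBP1 mRNA, PERK (EIF2AK3) slows translation and raises ATF4, and ATF6 is cut in the Golgi to release a transcription factor. Their targets add chaperones such as BiP (HSPA5), folding enzymes such as protein disulfide isomerases, and ERAD components that send misfolded proteins to the proteasome. B cells that become plasma cells use this programme, and proteasome inhibitors are known to burden the ER of plasma cells. The table counts whole genes, so XBP1 splicing and ATF6 cleavage were not measured.

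Some promoters of the members hold an element known from this response. As the members were chosen for the same response, its share among them is a description and not separate evidence. The ER stress response element (ERSE: CCAAT, 9 bases of any kind, then CCACG) is bound by NF-Y with ATF6 or XBP1. It was searched on both strands of the 250 bases before the gene start in the RefSeq promoters (GRCh38.p14), which matched 36 members (all but DERL1, DERL3 and PDIA3). An exact ERSE stood in 7 of 36 members (19.4%): CALR, CANX, CRELD2, ERO1B, HSP90B1, HSPA5 and XBP1. It stood in 22 of all 27305 promoters (0.081%), those of the members included. The shorter ERSE-II (ATTGG, 1 base of any kind, then CCACG) stood in HERPUD1, HYOU1 and SDF2L1 (8.33% of members against 14 promoters, 0.051%), and no member held both. A cyclic AMP response-like element (TGACGTG) was in 1 member, HYOU1, where it overlapped an ERSE-II, and in 1.71% of all promoters. An ATF4-type element (TGATGNAAN) was in 1 member, HERPUD1, and in 3.18% of all promoters. A match is a run of letters, not a shown binding site. The stretches of 5 members that passed a test below are printed 5′ to 3′ on the gene's strand, with the ERSE or ERSE-II in capitals. In HSPA5 the element lies 66 to 48 bases before the start, and HSP90B1 carries a copy on each strand.
HSPA5, chr9:125241371-125241429 (- strand): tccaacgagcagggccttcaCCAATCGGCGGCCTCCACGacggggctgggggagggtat
XBP1, chr22:28800583-28800641 (- strand): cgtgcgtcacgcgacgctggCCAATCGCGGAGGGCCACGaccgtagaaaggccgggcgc
CANX, chr5:179698758-179698816 (+ strand): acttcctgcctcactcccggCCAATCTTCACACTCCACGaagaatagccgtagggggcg
HSP90B1, chr12:103930196-103930359 (+ strand): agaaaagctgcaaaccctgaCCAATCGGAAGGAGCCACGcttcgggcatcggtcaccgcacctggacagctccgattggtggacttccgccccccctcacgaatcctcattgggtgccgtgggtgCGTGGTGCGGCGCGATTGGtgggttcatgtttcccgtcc
HERPUD1, chr16:56932005-56932055 (+ strand): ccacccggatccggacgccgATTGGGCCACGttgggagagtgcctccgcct

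Levels are given as nuclear CPM, which is CPM after the 15 mitochondrially encoded genes were left out. They are not corrected for gene length, so each gene is compared only between samples. Each library held 5.50 to 21.5 M reads, recovered from the steps of low values. The mitochondrial share was 1.91 to 3.92% in CON, 4.11 to 67.6% under BTZ, 5.58 to 20.9% under IBR and 4.32 to 9.03% under YM155. It was 3.23 to 80.5% under BTZ_CLF and 5.94 to 60.7% under IBR_CLF. By line its median over libraries was 19.9% in JEKO-1, 8.92% in MINO-P, 6.32% in MINO-VR and 4.11% in Z138. Its part in the results below was not tested. The B cell and MCL markers were present: MS4A1 was at least 206 CPM and CCND1 at least 207 CPM in every sample. The T cell marker CD3E was under 1 CPM in 48 of 48 samples and COL3A1, of fibroblasts, in 47. CD68, of macrophages, reached 126.5 CPM in MINO-VR and COL1A1, of fibroblasts, 74.8 CPM in Z138. The third BTZ sample of JEKO-1 stood apart from the averaged pair of that group. HSPA5 was 224 in it against 1502 in the pair, and PPP1R15A was 7.38 against 323. In that sample 27 of 39 members were below the pair, with a median difference of -1.40 on the log2(nuclear CPM + 1) scale, against -0.28 for all tested genes. Its mitochondrial share was 9.92% against 67.5 and 67.6% in the pair. Differences below are on the log2(nuclear CPM + 1) scale, from a limma fit over all genes that held terms for the treatment, the line and the library series (HK or MCL, as the library names have it), and a gene was called at a Benjamini-Hochberg adjusted p under 0.05. The scale understates the change of low genes. Some counts of called members below come from refits and have no share of all genes beside them. Such a count does not show a change particular to the members. In bulk RNA, fewer cells in a state and less RNA per cell cannot be told apart.

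Under BTZ 3 of the 8 ERAD members fell: DERL3, a derlin of the retrotranslocation channel, HERPUD1, which assembles the ERAD complex, and SYVN1, its ubiquitin ligase. The sensor ATF6, the thiol-dependent retention factor ERP44 and the co-chaperone DNAJC3 rose. That is 6 of 39 members called (3 higher, 3 lower), or 15.4%, a share near the 16.7% of all tested genes (4.12% called higher and 12.6% called lower). The other 5 ERAD members did not pass, with differences from -0.35 (EDEM1) to 0.51 (DERL1). The members' median difference was -0.08, beside -0.19 for all genes. With the mitochondrial genes kept in the total, all 6 called members were lower: 3 of the 6 were the same genes and none was called higher, the median of all genes was -0.38, and 8.09% of all called genes were higher against 24.7% in the main scaling. With size factors 5 members were called higher and 3 lower, the median of all genes was -0.08, and 40.6% of all called genes were higher.

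DERL3 separated the groups. In CON it was 5.22 in MINO-P, 5.17 in MINO-VR, 11.98 in JEKO-1 and 23.97 and 16.5 in Z138. Under BTZ, in the same order of lines, it was 1.01, 1.42, 3.23 and 0, and 0. All 5 BTZ samples lay below all 5 CON samples, and the fitted difference was -2.61 ± 0.43 (SE; adjusted p = 9.73e-05). Within Z138 the BTZ sample held no DERL3 reads; against its floor of 3 reads the mean of the Z138 CON samples was at least 132-fold higher. In a fit with a mean for each of the 37 groups this was the 1 member called for BTZ in Z138, beside 1.74% of all genes (adjusted p = 0.0211). The single Z138 BTZ sample is assumed there to vary like the other groups. The call was lost without either Z138 CON sample (adjusted p = 0.111 and 0.0963). The summed plasma cell markers SDC1, PRDM1 and JCHAIN, which mark cells that express DERL3 strongly, were 117 to 1994 CPM in CON and 33.6 to 289 CPM under BTZ. Their part in the result was not tested.

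HERPUD1 in CON was 480.1 in MINO-P, 555 in MINO-VR, 293 in JEKO-1 and 371 and 179 in Z138. The BTZ samples held 318, 188, 223 and 83.8, and 149.6. It was below the line's own CON in every line, though the groups overlapped, and the difference was -1.04 ± 0.28 (SE; adjusted p = 0.0085). SYVN1 was 203 in MINO-P, 269 in MINO-VR, 169 in JEKO-1 and 221 and 189 in Z138 in CON. BTZ values were 246, 144, 86.6 and 33.4, and 90.7. MINO-P was the exception, with a BTZ sample above its CON, and the difference over all lines was -0.9997 ± 0.27 (SE; adjusted p = 0.0095). Within the HK series alone, which holds the MINO samples of this comparison, SYVN1, ERP44 and DNAJC3 were not called (adjusted p = 0.420, 0.0615 and 0.120). Within the MCL series alone HERPUD1, ATF6 and DNAJC3 were not (adjusted p = 0.0922, 0.191 and 0.204).

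Among the sensors, ATF6 was 59.6 in MINO-P, 66.0 in MINO-VR, 61.0 in JEKO-1 and 110.3 and 86.6 in Z138 in CON. Under BTZ it was 107, 108, 92.3 and 216, and 121. Each line's BTZ samples averaged above its CON, and the difference was 0.74 ± 0.24 (SE; adjusted p = 0.0303). Without the third JEKO-1 BTZ sample it was 0.55 (adjusted p = 0.0866). The call was also lost without the BTZ sample of MINO-P or the CON sample of JEKO-1, MINO-P or MINO-VR. ERN1 under BTZ was 446, 153, 203 and 34.9, and 264, against 166 in MINO-P, 212 in MINO-VR, 48.2 in JEKO-1 and 593 and 386 in Z138 in CON. It was above CON in MINO-P and in the JEKO-1 pair and below it elsewhere, and the difference was 0.06 ± 0.44 (SE; adjusted p = 0.945). EIF2AK3 under BTZ was 111, 44.0, 98.2 and 23.1, and 126, against 48.8 in MINO-P, 57.0 in MINO-VR, 39.9 in JEKO-1 and 122 and 105 in Z138 in CON, with a difference of 0.20 ± 0.31 (SE; adjusted p = 0.716). XBP1 was 181, 189, 116 and 43.8, and 125 under BTZ, against 231 in MINO-P, 412 in MINO-VR, 84.3 in JEKO-1 and 258 and 236 in Z138 in CON. The difference was -0.77 ± 0.36 (SE; adjusted p = 0.139), which did not pass.

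The best known target, HSPA5, did not pass either. It was 219 in MINO-P, 1281 in MINO-VR, 995 in JEKO-1 and 1108 and 785 in Z138 in CON. The BTZ values were 847, 1453, 1502 and 224, and 1753. MINO-P had the lowest CON value and the third JEKO-1 sample the lowest BTZ value, and the difference was 0.27 ± 0.47 (SE; adjusted p = 0.754). DNAJC3 (p58IPK) inhibits the kinase PERK and assists BiP. It was 27.8 in MINO-P, 69.1 in MINO-VR, 29.0 in JEKO-1 and 177 and 125 in Z138 in CON. With BTZ it stood at 120.0, 74.7, 65.9 and 133, and 123. It was higher in MINO-P and JEKO-1 but below both CON samples in Z138, and the difference was 0.91 ± 0.30 (SE; adjusted p = 0.0327). The call was lost without the CON sample of MINO-P or JEKO-1, the second CON sample of Z138, the BTZ sample of MINO-P or the third of JEKO-1.

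ERP44 in CON was 53.8 in MINO-P, 63.3 in MINO-VR, 85.6 in JEKO-1 and 81.2 and 54.5 in Z138. BTZ samples stood at 76.8, 90.5, 156 and 184, and 119. BTZ exceeded CON in every line, and the difference was 0.74 ± 0.18 (SE; adjusted p = 0.0041). PPP1R15A (GADD34), the phosphatase subunit that reverses PERK's block on translation, was 113 in MINO-P, 181 in MINO-VR, 14.8 in JEKO-1 and 85.6 and 27.5 in Z138 in CON. Under BTZ it was 655, 184, 323 and 7.38, and 443. It was high in MINO-P, the JEKO-1 pair and Z138 but near 7 CPM in the third JEKO-1 sample, and the difference was 1.68 ± 0.80 (SE; adjusted p = 0.144). Leaving out the third JEKO-1 sample, 7 members passed (3 up, 4 down), 4 of them from the 6 above, and the members' median turned from -0.08 to 0.14. When only the BTZ and CON samples were fitted, 0 members passed. The share of all genes in these refits is not given here, so the counts do not show a change particular to the members.

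**Figure D1:**
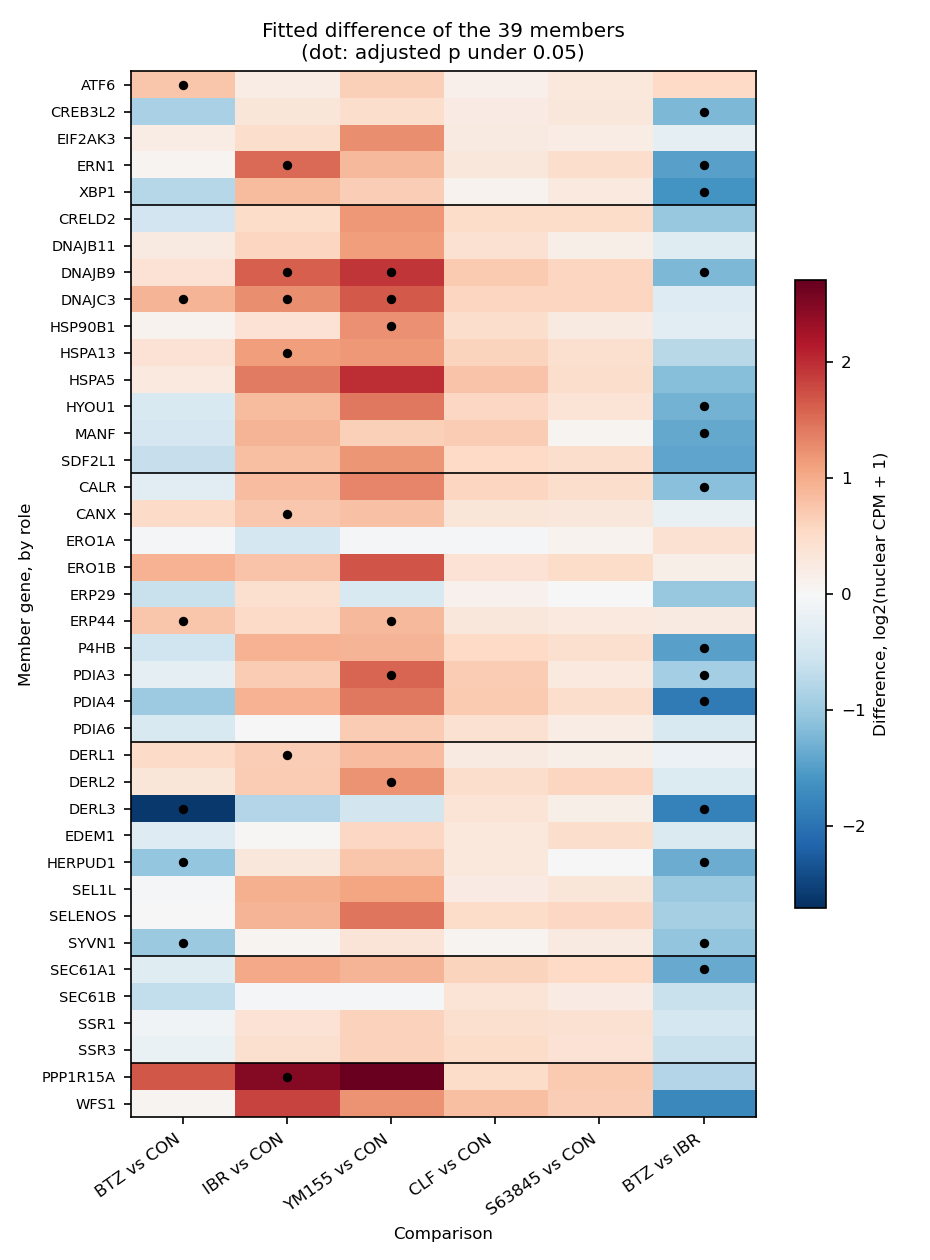
Fitted differences of the 39 members (rows, grouped by role, with lines between roles) in 6 comparisons (columns), coloured from blue (lower) to red (higher) on the log2(nuclear CPM + 1) scale. Dots mark an adjusted p under 0.05: 6 members in BTZ vs CON, 7 in IBR vs CON, 6 in YM155 vs CON, 14 in BTZ vs IBR and 0 in CLF vs CON and S63845 vs CON.

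The BTZ estimates were not alike in the 4 lines, though the test of that difference called no member. In MINO-P 31 of 39 members were above CON, with a median difference of 0.72, beside -0.09 for all genes. In MINO-VR 12 of 39 were above CON, with a median of -0.45 beside -0.07. JEKO-1 had 19 above CON (median -0.14 beside -0.13) and Z138 had 15 (median -0.17 beside -0.24). Shares of all genes below in this paragraph are of genes called, so they pair with called members and not with unadjusted counts. For each line the same fit, which takes its spread from groups with more than 1 sample, called 0 members in JEKO-1, MINO-P and MINO-VR, beside 0.621%, 0.119% and 0.125% of all genes, with 11, 3 and 0 members at an unadjusted p under 0.05. The test of a difference in BTZ response between the 4 lines called 0 members, with 1 at an unadjusted p under 0.05, beside 0.0477% of all genes. Without the averaged JEKO-1 BTZ pair, leaving the third sample for that line, it called 13 members, beside 19.4% of all genes in the same refit. The response of MINO-VR (BTZ and BTZ_CLF minus CON and CLF) was below that of MINO-P for 35 of 39 members, with a median of -0.97. The test of this difference called 0 members, with 2 at an unadjusted p under 0.05, beside 0.0477% of all genes.

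The direction of the difference between the MINO lines was not the same in the samples of each treatment. In CON 35 of 39 members were higher in MINO-VR than in MINO-P, with a median of 0.61, beside -0.01 for all genes. HSPA5 was 219 CPM in the MINO-P sample and 1281 CPM in the MINO-VR sample, the widest CON gap of the named members. Under BTZ 11 of 39 members were higher in MINO-VR, and the median was -0.34, beside 0.00 for all genes. Under BTZ_CLF it was 7 of 39 (median -0.41 beside 0.02). MINO-VR was also the higher for most members under CLF (31 of 39, median 0.50), IBR (30, median 0.16) and IBR_CLF (33, median 0.42). The medians of all genes there were -0.04, 0.09 and 0.08, and under IBR 58.6% of all genes were higher in MINO-VR. MINO-VR was the lower for most members under YM155 (9 higher), S63845 (8 higher) and BTZ_YM155 (5 higher). Of all genes 50.6%, 39.7% and 41.5% were higher in MINO-VR under these treatments, in the same order. Most of these comparisons set 1 sample against 1, and all are within a library series. The change of direction was tested only for BTZ, as above, where no member was called.

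**Figure D2:**
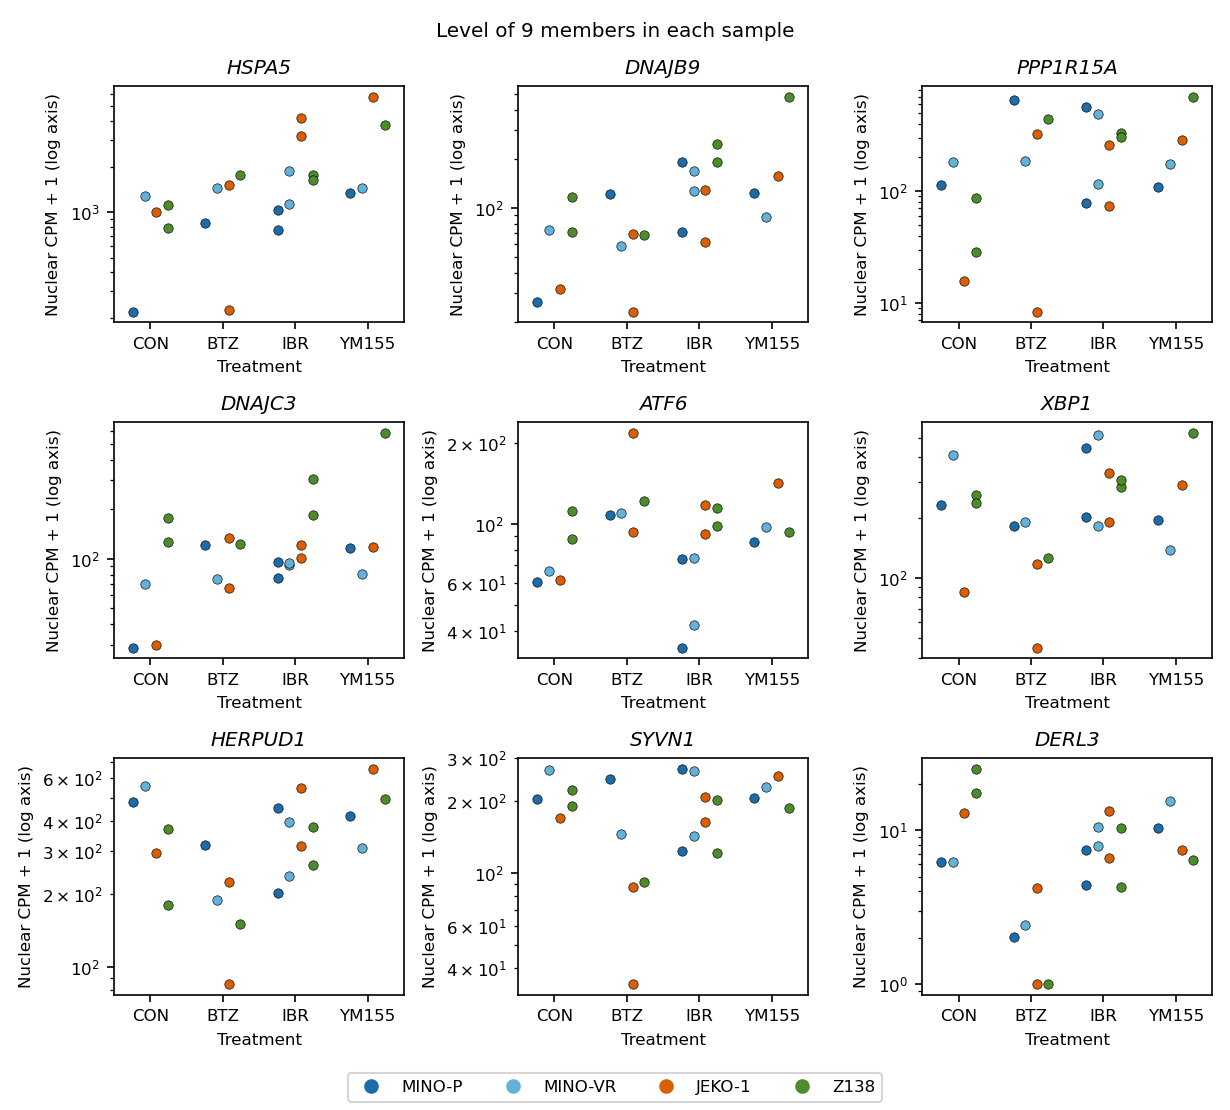
Level of 9 members in each CON, BTZ, IBR and YM155 sample, as nuclear CPM plus 1 on a log axis, with 1 point a sample, coloured by cell line. DERL3 points under BTZ, from 0 to 3.23 CPM, lie below all CON points, while HSPA5 and PPP1R15A have 1 low JEKO-1 point under BTZ.

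Under IBR 1 of 5 sensors and factors and 3 of 10 chaperones and partners rose. Of 39 members 7 were called, all higher (17.9%), beside 8.15% of all genes called and 3.2% called higher, and 35 of 39 differences were above 0. The members' median was 0.69, beside 0.00 for all genes. The rises were PPP1R15A, the chaperone partners DNAJB9, DNAJC3 and HSPA13, the sensor ERN1, the lectin chaperone CANX and the derlin DERL1. CON samples are the same as in the BTZ comparison. Every MINO IBR sample is of the MCL series and every MINO CON sample of the HK series. In JEKO-1 and Z138, where both are of the MCL series, 29 of 39 members were higher under IBR in both lines. In MINO-P 26 of 39 were above CON (median 0.43) and in MINO-VR 19 (median -0.07 beside -0.03 for all genes), across the series. Within the MCL series alone 1 member was called, and within the CON and IBR samples alone 1.

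DNAJB9 (ERdj4), a BiP partner that helps to keep IRE1 silent, was 25.6 in MINO-P, 72.2 in MINO-VR, 30.6 in JEKO-1 and 116 and 70.0 in Z138 in CON. Under IBR it was 61.2 to 246 (median 148) over 8 samples. The IBR mean was above CON in every line, the groups overlapped, and the difference was 1.61 ± 0.37 (SE; adjusted p = 0.0062). It kept its call when any single sample was left out. ERN1 was 159 to 993 (median 404) under IBR, against 48.2 to 593 in CON, and the difference was 1.52 ± 0.44 (SE; adjusted p = 0.0262). DNAJC3 was 75.2 to 304 (median 97.7) under IBR, against 27.8 to 177 in CON, with a difference of 1.25 ± 0.30 (SE; adjusted p = 0.0084). Both overlapped CON, in which the Z138 samples were the highest. The ERN1 call was lost without the CON sample of MINO-P or JEKO-1, the second CON sample of Z138, or either IBR sample of JEKO-1.

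HSPA13, a microsomal HSP70-like protein, was 108 to 282 (median 190.5) under IBR and 96.3 in MINO-P, 177 in MINO-VR, 47.2 in JEKO-1 and 206 and 125 in Z138 in CON. The difference was 1.12 ± 0.31 (SE; adjusted p = 0.0218). PPP1R15A was 72.2 to 569 (median 282) under IBR, and its difference was the largest of the called members, 2.48 ± 0.79 (SE; adjusted p = 0.0439). The PPP1R15A call was close to the threshold and was lost in 13 of 24 alternatives. These included leaving out any of 9 single samples, among them the MINO-P, JEKO-1 and both Z138 CON samples. HSPA13 was lost without the CON sample of MINO-P or JEKO-1, the second CON sample of Z138 or the averaged JEKO-1 IBR pair. CANX differed by 0.72 ± 0.23 (SE; adjusted p = 0.0421) and DERL1 by 0.67 ± 0.19 (SE; adjusted p = 0.026). HSPA5 was 762 to 4205 (median 1699) under IBR and just missed the threshold, at 1.41 ± 0.47 (SE; adjusted p = 0.0526). EIF2AK3 differed by 0.47 ± 0.31 (SE; adjusted p = 0.391), ATF6 by 0.20 ± 0.24 (SE; adjusted p = 0.688) and XBP1 by 0.85 ± 0.36 (SE; adjusted p = 0.139). The count fell to 2 without the CON sample of MINO-P or JEKO-1, without the second Z138 CON sample or without the averaged JEKO-1 IBR pair.

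Set directly against IBR, BTZ left 14 of 39 members lower and none higher (35.9%), beside 11.5% of all genes called and 8.98% called lower. The members' median was -0.92, beside -0.17 for all genes. In the MINO lines this comparison crosses library series, as their BTZ samples are HK and their IBR samples MCL. The fit held a term for the series, but the levels and overlaps given below are not adjusted for it. The 14 spanned the roles: ERN1, XBP1 and CREB3L2, the lumenal factors MANF, HYOU1 and DNAJB9, the folding factors PDIA3, PDIA4, P4HB and CALR, the ERAD genes DERL3, HERPUD1 and SYVN1, and the translocon pore SEC61A1. PDIA4 was 31.6 to 304 (median 269) under BTZ and 339 to 899 (median 496) under IBR. These groups did not overlap, and the difference was -1.91 ± 0.36 (SE; adjusted p = 0.001). DERL3 also did not overlap, at 0 to 3.23 (median 1.01) against 3.3 to 12.4 (median 6.69), with a difference of -1.82 ± 0.43 (SE; adjusted p = 0.0066).

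XBP1, the transcription factor of the IRE1 arm, was 43.8 to 189 (median 125) under BTZ and 181 to 519 (median 297) under IBR. The ranges met only at their edges, and the difference was -1.62 ± 0.36 (SE; adjusted p = 0.0042). P4HB, a protein disulfide isomerase, was 101 to 873 (median 494) against 698 to 1771 (median 991), with a difference of -1.46 ± 0.31 (SE; adjusted p = 0.0028). ERN1 was 34.9 to 446 (median 203) against 159 to 993 (median 404), with a difference of -1.46 ± 0.44 (SE; adjusted p = 0.028). PDIA4, DERL3, XBP1, P4HB and HERPUD1 kept their calls when any single sample was left out. The count was 8 without the third JEKO-1 BTZ sample (median -0.61), 7 without the averaged JEKO-1 IBR pair, and 0 when only BTZ and IBR samples were fitted. With size factors 10 of the 14 were still called lower and 1 other member was called higher, while 38.3% of all called genes were higher against 21.8% in the main scaling. With mitochondrial genes kept, 21 members were lower and that share was 4.61%.

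**Figure D3:**
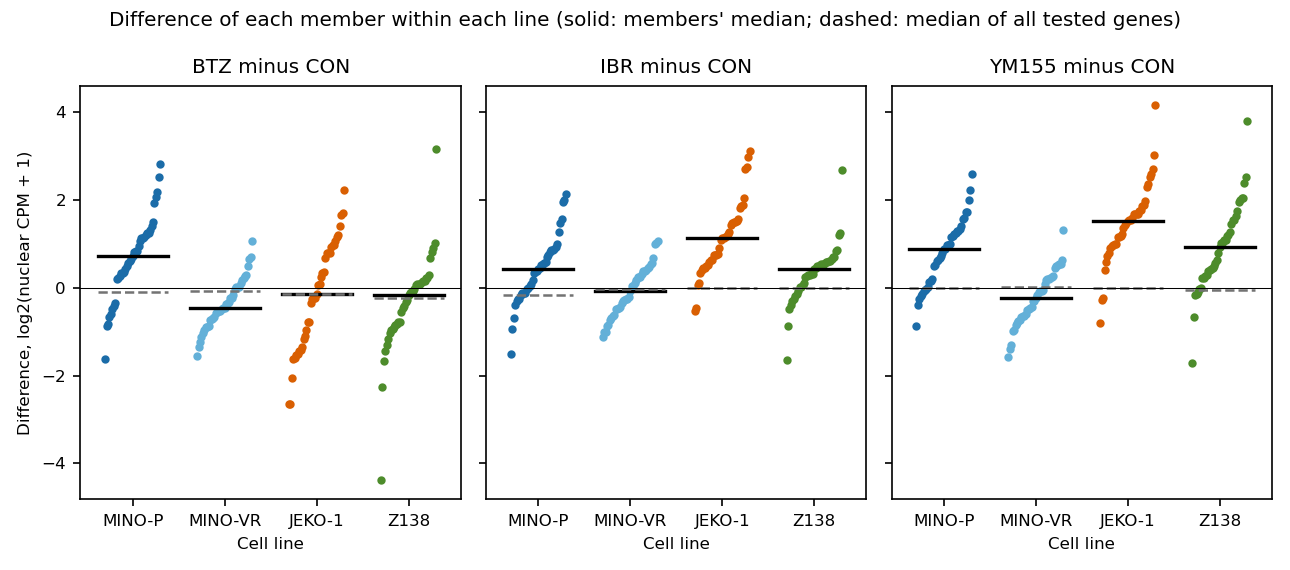
Difference of each member from CON within each cell line (1 point a member, sorted) under BTZ, IBR and YM155, on the log2(nuclear CPM + 1) scale, with the members' median (solid) and that of all tested genes (dashed). Under BTZ the members' median was 0.72 in MINO-P and -0.45 in MINO-VR, and under IBR and YM155 it was highest in JEKO-1 (1.14 and 1.52).

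YM155 was set against the same CON samples, as were CLF and S63845 below. Of 39 members 6 were called, all higher (15.4%), beside 0.531% of all genes called and 0.346% called higher, and 35 of 39 differences were above 0 (median 0.92 beside 0.04). They were the BiP partners DNAJB9 and DNAJC3, the isomerase PDIA3, the lumenal HSP90 (HSP90B1, GRP94), the derlin DERL2 and ERP44. DNAJB9 was 123 in MINO-P, 87.5 in MINO-VR, 155 in JEKO-1 and 481 in Z138 under YM155. The MINO-P, JEKO-1 and Z138 values were above every CON sample, whose highest was 116, and the difference was 1.94 ± 0.42 (SE; adjusted p = 0.0262). PDIA3 was 457 in MINO-P, 423 in MINO-VR, 855 in JEKO-1 and 1280.1 in Z138, against 181 in MINO-P, 355 in MINO-VR, 267 in JEKO-1 and 380.1 and 254 in Z138 in CON. These groups did not overlap, and the difference was 1.58 ± 0.33 (SE; adjusted p = 0.0241).

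DNAJC3 was 115 in MINO-P, 80.2 in MINO-VR, 116 in JEKO-1 and 582 in Z138 under YM155, with a difference of 1.65 ± 0.34 (SE; adjusted p = 0.0241). HSP90B1 was 1202 in MINO-P, 664 in MINO-VR, 1448 in JEKO-1 and 2219 in Z138, against 452 to 1058 in CON, with a difference of 1.23 ± 0.31 (SE; adjusted p = 0.0483). With the Z138 set mark as a replicate block HSP90B1 did not pass (adjusted p = 0.0595) and 5 members were called. DERL2 was 53.1 in MINO-P, 47.3 in MINO-VR, 37.2 in JEKO-1 and 106 in Z138, against 19.4 to 44.2 in CON, with a difference of 1.21 ± 0.28 (SE; adjusted p = 0.0355). Z138 had the highest value of each of these 3 genes and MINO-VR the lowest or next to lowest. ERP44 differed by 0.87 ± 0.21 (SE; adjusted p = 0.0421). HSPA5 was 1338 in MINO-P, 1447 in MINO-VR, 5788 in JEKO-1 and 3744 in Z138, above all CON samples, but its difference of 2.002 ± 0.53 (SE; adjusted p = 0.0657) did not pass. ERN1, EIF2AK3, ATF6, XBP1 and PPP1R15A did not pass: EIF2AK3 differed by 1.25 ± 0.36 (SE; adjusted p = 0.0882) and PPP1R15A by 2.67 ± 0.90 (SE; adjusted p = 0.15).

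Each line gave 1 YM155 sample, and the calls rested on single samples. The count was 0 without the second Z138 CON sample or without the Z138 YM155 sample, 1 without the JEKO-1 CON or the JEKO-1 YM155 sample and 2 without the MINO-P CON sample. It was 0 within the MCL series and 1 when only YM155 and CON samples were fitted. In MINO-VR 14 of 39 members were above CON under YM155 (median -0.24), against 31 in MINO-P, 36 in JEKO-1 and 33 in Z138. Of all genes 51.5%, 47.9%, 48.4% and 40.8% were higher, in the same order. The differences in the MINO lines cross library series. In JEKO-1 and Z138, where YM155 and CON are of the same series, 32 of 39 were higher in both.

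No member passed the test for CLF or S63845 alone. limma called 0 members for CLF, with 3 at an unadjusted p under 0.05, beside 0% of all genes (58 at an unadjusted p under 0.05). For S63845 it called 0 members, with 1 at an unadjusted p under 0.05, beside 0% of all genes (406). The estimates leaned upward: 38 of 39 were above 0 for CLF (median 0.44 beside -0.01 for all genes) and 37 of 39 for S63845 (median 0.38 beside 0.04). For HSPA5 the 95% interval of the CLF difference was -0.12 to 1.68 and that of S63845 was -0.52 to 1.46, so neither shows that the drug left it alone. Under CLF most members were above CON in each line: 37 of 39 in Z138, 35 in JEKO-1, 36 in MINO-P and 31 in MINO-VR. Of all genes 54.6%, 45.6%, 46.0% and 39.5% were higher under CLF, in the same order of lines. S63845 had 35, 25, 29 and 6 members higher in the same order, beside 55.0%, 41.9%, 44.2% and 36.7% of all genes. In MINO-P and MINO-VR the S63845 samples are of the MCL series and CON of the HK series, so these differences cross series.

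Adding a partner drug gave no call among the members. BTZ_CLF against BTZ called 0 members, beside 0% of all genes. At an unadjusted p under 0.05 were 2 members, and 31 of 39 estimates were above 0 (median 0.46). IBR_CLF against IBR called 0, beside 0% of all genes, with 5 members at an unadjusted p under 0.05, and 32 of 39 were above 0 (median 0.37). BTZ_YM155 against BTZ called 0, beside 0.0537% of all genes called. It had 15 members at an unadjusted p under 0.05, and 36 of 39 were above 0 (median 0.75). The unadjusted counts here have no count of all genes beside them. HSPA5 was 4351 in MINO-P and 2496 in MINO-VR under BTZ_YM155, against 847 and 1453 under BTZ, and XBP1 was 665 and 209 against 181 and 189. Both lines' BTZ_YM155 values were above their BTZ values, but the fitted differences were 2.47 ± 0.70 (SE; adjusted p = 0.127) and 2.04 ± 0.54 (SE; adjusted p = 0.105), and BTZ and BTZ_YM155 samples of the MINO lines are of different library series.

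Chaperones, folding enzymes and sensors were higher in Z138 than in MINO-P across treatments. Of 39 members 22 were higher in Z138 and none lower (56.4%), beside 36.3% of all genes called and 18.4% called higher, with a median of 0.58 beside 0.02. By role, 8 of 10 chaperones were called, as were 6 of 10 folding enzymes, 3 of 5 sensors and factors, 2 of 8 ERAD genes and 2 of 4 translocon genes. DNAJC3 was 123 to 582 (median 211) over 13 Z138 samples and 27.8 to 159.5 (median 101) over 13 MINO-P samples. It was higher in Z138 under each of 8 shared treatments, and the difference was 1.65 ± 0.22 (SE; adjusted p = 1.27e-07). ERN1 was 264 to 1077 (median 583) against 128 to 488 (median 242), with a difference of 1.45 ± 0.33 (SE; adjusted p = 4.93e-04). ERN1 was lower in Z138 under 2 of the 8 treatments. All Z138 samples are of the MCL series, while the MINO-P samples under CON, CLF and BTZ are of the HK series. Under these treatments the lines are compared across series.

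ERO1B, an oxidase that recharges disulfide isomerases, was 7.68 to 69.9 (median 21.1) in Z138 and 2.87 to 22.2 (median 10.4) in MINO-P, with a difference of 1.43 ± 0.31 (SE; adjusted p = 3.25e-04). SEC61A1 was 515 to 1148 (median 682) against 194 to 564 (median 366), with a difference of 1.26 ± 0.27 (SE; adjusted p = 2.95e-04). Both were higher in Z138 under 8 of 8 shared treatments, with overlapping ranges. WFS1, an ER membrane protein whose gene is mutated in Wolfram syndrome, was 46.4 to 159.9 (median 80.1) against 13.3 to 104 (median 50.5), with a difference of 1.13 ± 0.45 (SE; adjusted p = 0.0446). That call was the weakest of these 5, lost in 21 of 35 alternatives. HSPA5 differed by 1.01 ± 0.34 (SE; adjusted p = 0.019), ATF6 by 0.84 ± 0.18 (SE; adjusted p = 2.34e-04) and EIF2AK3 by 0.62 ± 0.23 (SE; adjusted p = 0.033). Z138 also had the highest plasma cell marker JCHAIN, with a median of 926 CPM against 7.98 in MINO-P, and PRDM1 had medians of 67.7 and 29.5 CPM. Their part in the result was not tested. Within the MCL series 12 members were called.

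Between JEKO-1 and MINO-P a smaller share of the members was called than of all genes, in both directions. JEKO-1 had 8 of 39 called (20.5%), beside 33.8% of all genes: 6 higher, beside 18.7%, and 2 lower, beside 15%. The median was 0.02 beside 0.03. SEC61B, a small subunit of the translocon, was 91.7 to 427 (median 348) over 11 JEKO-1 samples and 86.3 to 208 (median 121) in MINO-P, with a difference of 1.42 ± 0.21 (SE; adjusted p = 1.61e-06). ERP44 was 85.6 to 191 (median 139) against 53.8 to 150.1 (median 64.8), with a difference of 0.99 ± 0.15 (SE; adjusted p = 1.06e-06). Both were higher in JEKO-1 under 8 of 8 shared treatments. HSPA5 was 224 to 5788 (median 1502) against 219 to 4351 (median 1031), and differed by 1.26 ± 0.38 (SE; adjusted p = 0.0088). CREB3L2, an ATF6-like membrane transcription factor, was 31.7 to 186 (median 95.8) against 90.8 to 335 (median 199) and differed by -1.02 ± 0.27 (SE; adjusted p = 0.0028). ERP29 was 20.2 to 238 (median 116) against 129 to 434 (median 235) and differed by -0.9965 ± 0.28 (SE; adjusted p = 0.006). CREB3L2 and ERP29 were lower in JEKO-1 under 8 of 8 treatments. Here too the comparison crosses library series under CON, CLF, BTZ and BTZ_CLF, where MINO-P is of the HK series and JEKO-1 of the MCL series.

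MINO-VR against MINO-P had 1 of 39 members called, beside 5.26% of all genes. EIF2AK3 was 34.1 to 97.5 (median 56.1) over 11 MINO-VR samples, lower than 48.8 to 191 (median 88.5) in MINO-P, with a difference of -0.73 ± 0.21 (SE; adjusted p = 0.0361). It was lower under 8 of 9 shared treatments, the exception being CON. The call was lost when any of 9 single samples was left out, and within either library series alone. HSPA5 went the other way, higher under 8 of 9 treatments, with a difference of 0.81 ± 0.32 (SE; adjusted p = 0.149) that did not pass.

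**Figure D4:**
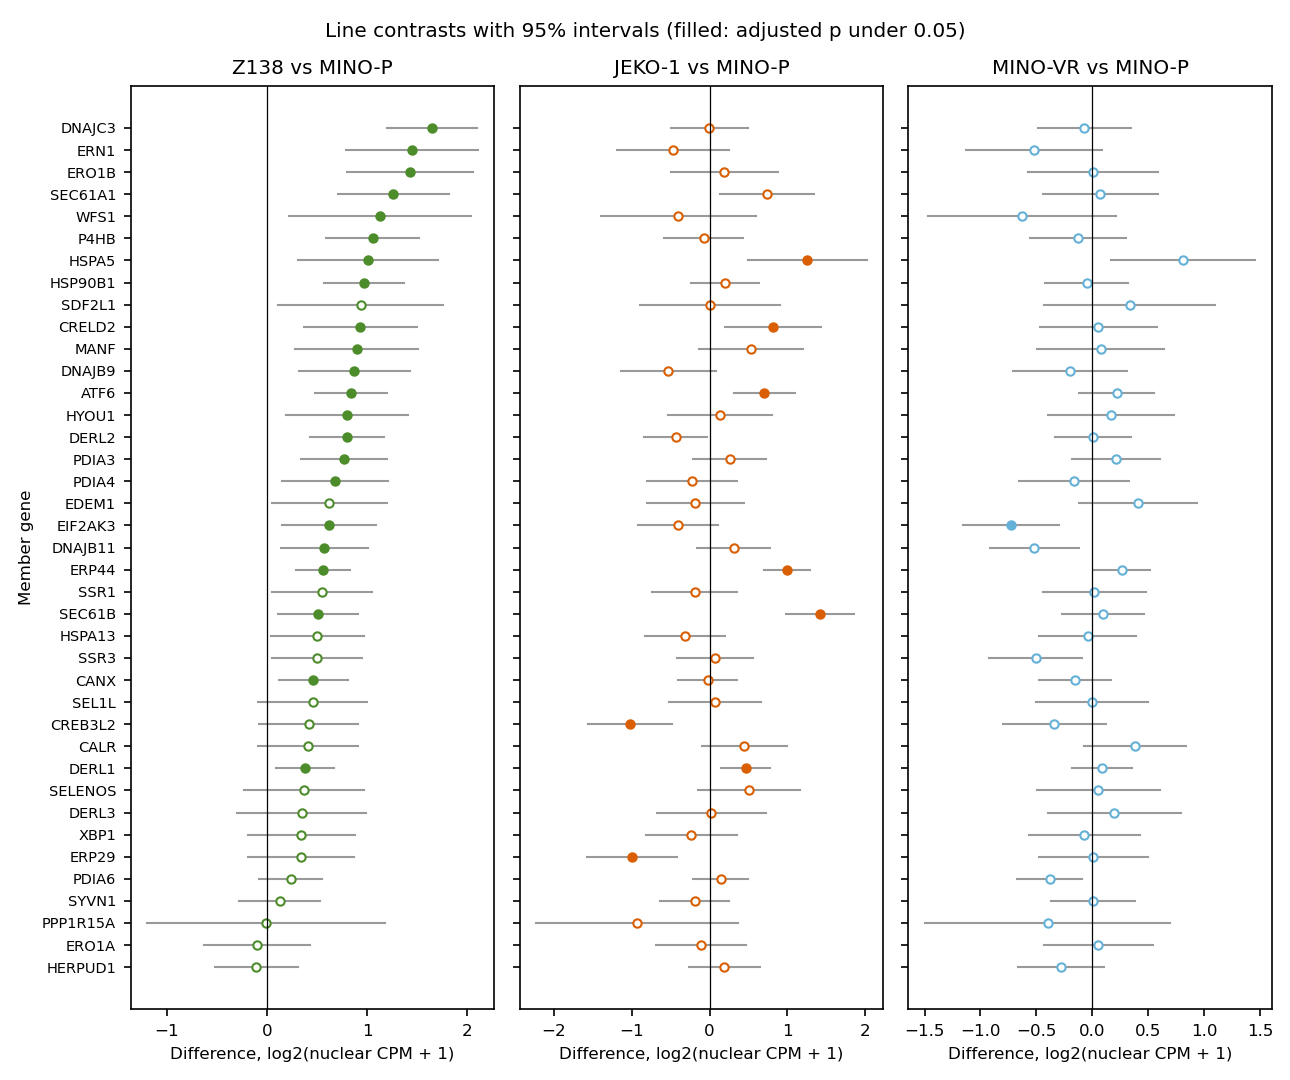
Fitted difference of each member (rows, sorted by Z138 vs MINO-P) from MINO-P in Z138, JEKO-1 and MINO-VR on the log2(nuclear CPM + 1) scale, with 95% intervals. Filled points passed an adjusted p under 0.05: 22 members in Z138, all higher, 8 in JEKO-1 and 1 in MINO-VR.

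The 10 members with an exact ERSE or ERSE-II are set beside the other 29 as a description. The 29 include DERL1, DERL3 and PDIA3, whose promoters were not searched, so these are not known to lack the element. Under BTZ 1 of 10 was called lower (HERPUD1), and of the other 29, 3 were called higher and 2 lower. The medians were -0.35 and, for the others, -0.06. Under IBR 1 of 10 was called higher (CANX) against 6 of 29, with a median of 0.79 beside 0.67. Under YM155 it was 1 of 10 (HSP90B1) against 5 of 29, with a median of 1.21 beside 0.88. In Z138 against MINO-P 6 of 10 and 16 of 29 were called higher, with a median of 0.87 beside 0.56. Of all genes 16.7% were called under BTZ. Called higher were 3.2% of all genes under IBR, 0.346% under YM155 and 18.4% in Z138 against MINO-P.

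Genes of neighbouring pathways were read from 5 lists, to be set against the shares of all genes called: 16.7% under BTZ, 8.15% under IBR and 36.3% in Z138 against MINO-P. With 2 of 14 and 2 of 15 called under BTZ, the PERK arm and the other ERAD genes were below that share. In the PERK and ATF4 arm 2 of 14 were called under BTZ, both lower: CHAC1 (-2.02, limma adjusted p = 0.0350), a glutathione-degrading target of ATF4, and VLDLR (-1.62, adjusted p = 0.0181). None of the 14 was called under IBR, with 6 at an unadjusted p under 0.05 (median 0.63). Of 17 other regulators and folding factors 5 fell under BTZ, led by BHLHA15 (MIST1, -3.07), a transcription factor of secretory cells, MZB1 (-2.40), a chaperone of B cells and plasma cells, and PDIA5 (-1.29). Other ERAD genes had 2 of 15 called under BTZ, both higher: UBXN4 (0.98) and FAF2 (0.69), which recruit the segregase VCP. EDEM2 (1.10) and OS9 (1.05) of this list rose under IBR. ER to Golgi transport had 0 of 12 called under BTZ, with 3 at an unadjusted p under 0.05, and 3 of 12 under IBR: SEC24D (1.64), KDELR1 (1.02) and SEC31A (0.73), all higher. Secretory entry and glycosylation had 0 of 20 called under BTZ, with 4 at an unadjusted p under 0.05, and 1 under IBR, SSR2 (1.12). CREB3 (1.81) and SIL1 (1.40) of the other regulators rose under IBR. In Z138 against MINO-P secretory entry and glycosylation had 11 of 20 higher and 1 lower, led by SSR2 (1.17), SEC63 (1.14) and STT3B (1.02). The PERK arm had 4 of 14 higher and 1 lower there, led by VLDLR (2.02), PPP1R15B (1.36) and DDIT4 (1.11). In the same comparison ER to Golgi transport had 5 of 12 higher and the other regulators 6 of 17 higher and 1 lower.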

How the data were processed

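The series is bulk RNA-seq of MCL cell line cultures. Cells were lysed through QIAshredder and RNA taken with RNeasy, per the labels' protocols. Poly-A RNA went into TruSeq RNA v2 libraries, a kit that keeps no strand, so reads of overlapping antisense genes cannot be told apart. The deposited table holds log2(CPM + 1) values made by the authors. Partek and the build hg38 are named per the submitters' processing notes; the aligner, counter and annotation are not given in the sources used here. An unnamed entry (at most 0.0008% of a library) was left out.

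The log2 was undone, the 15 mitochondrial genes were left out and each library was rescaled to the same total. Pairs of MINO and JEKO-1 libraries whose names differ by a final a (8 pairs, chi-square per degree of freedom 4.09 to 8.69) were averaged. The 5 Z138 pairs whose names differ by a final A (52.4 to 310.8) were kept apart. The A and non-A Z138 samples deviated together: the differences between them correlated over genes in 10 of 10 pairs of treatments (r = 0.235 to 0.619). This mark was a block in an added alternative. Genes with at least 1 CPM in at least 2 samples were tested with limma 3.58.1 (R 4.3.3, intensity trend, pseudocount 1, Benjamini-Hochberg adjustment over all 16755 genes), tested beforehand on simulated data. Treatment contrasts came from an additive fit over all 48 samples, and BTZ within a line from a mean for each of the 37 groups. Depth was recovered from the steps of low values, of which 78.7 to 90.4% were whole reads within 0.05, so no count model was used. A count of 3 reads is 0.146 to 2.18 nuclear CPM, for counting error only.

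Named genes are the 3 sensors, XBP1, HSPA5, PPP1R15A, called members under BTZ, the 5 called members with the largest difference in each other comparison, and up to 3 called genes a list. The members and lists were chosen with earlier results of these data known. Alternatives were other scalings, pseudocounts, filters, weights, terms and samples, and leaving out each sample.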

Additional observations from a re-analysis of the deposited data

How the results depend on the processing

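Counts of called members moved by over 1.5 times as follows (main counts: BTZ vs CON 6, IBR vs CON 7, YM155 vs CON 6, BTZ vs IBR 14, BTZ_YM155 vs BTZ 0, MINO-VR vs MINO-P 1, JEKO-1 vs MINO-P 8, Z138 vs MINO-P 22). With mitochondrial genes kept, IBR gave 4, YM155 gave 1, BTZ_YM155 vs BTZ gave 1 and MINO-VR gave 0. With libraries as samples, BTZ gave 10, IBR 16, YM155 10, BTZ_YM155 vs BTZ 3 and MINO-VR 2. With array weights, BTZ gave 15, IBR 22, YM155 13, BTZ vs IBR 8 and MINO-VR 8. Fitting only the compared groups, BTZ gave 0, IBR 1, YM155 1 and BTZ vs IBR 0. Without the library series term, IBR gave 4 and JEKO-1 gave 13. With Z138 pairs averaged, YM155 gave 1. Without the filter, BTZ_YM155 vs BTZ gave 3. Within the MCL series, IBR gave 1, YM155 0, MINO-VR 0 and Z138 12, and within the HK series MINO-VR gave 5 (both chosen after seeing the data). The cause was not tested. Shares of all genes called in these refits are not given here, so the counts do not show a change particular to the members. The other 113 counts stayed within 1.5 times. Leaving out 1 sample at a time, BTZ ranged from 5 to 9, the test across lines from 0 to 13, BTZ vs IBR from 7 to 18, BTZ_YM155 vs BTZ from 0 to 4, IBR from 2 to 9, YM155 from 0 to 6, MINO-VR from 0 to 1, JEKO-1 from 6 to 10 and Z138 from 15 to 24. It left CLF, S63845, BTZ_CLF vs BTZ and IBR_CLF vs IBR at 0. No called member changed sign in an alternative in which it was refitted. The labels give no replicate numbers, but the final A of Z138 library names marks a set. With that mark as a replicate block (chosen after seeing the data), BTZ gave 7, IBR 7, YM155 5, BTZ vs IBR 14, and CLF, S63845 and IBR_CLF vs IBR 0; HSP90B1 under YM155 lost its call (1.19, adjusted p = 0.0595) and no other called member did. Most groups (26 of 37) hold 1 sample, treatment and library series partly coincide in the MINO lines, and doses and times are not given in the sources used here. In the JEKO-1 BTZ pair 3 reads correspond to 1.29 and 1.68 nuclear CPM, so low genes such as DERL3 are least precise there.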
